A study of Apis mellifera with 138 samples.

Results

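The abdominal fat bodies of 4 worker honey bees (Apis mellifera) with a high share of virus counts were compared with the fat bodies of 30 bees whose libraries held few virus counts or none. These 34 libraries were all the antag-missense fat bodies among the 138 libraries of the series. Members were chosen by their virus counts: a library was high-virus where more than 0.5% of all its counts lay on virus genomes, and low-virus otherwise. Virus counts are therefore given below as a description, and tests were run on bee genes alone, whose levels are in CPM, a gene's counts scaled to a fixed total of bee-gene counts per library.

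Deformed wing virus (DWV) and its relatives are RNA viruses that many honey bees carry. The fat body, which lines the abdomen, does the work of a liver and an adipose tissue in insects and is the main source of antimicrobial peptides in their blood. In insects, recognition proteins and the Toll and Imd pathways switch on these peptides, while RNA interference cuts viral RNA.

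Bees of both classes had the same treatment and age, and each colony gave bees of both. They came from colonies R2, R3 and R42, whose queens had been inseminated by 1 drone each, and each colony was a trial of its own. At an age of 3 days the bees were fed 1000 pmol of antag-missense, the control construct for an antagomir against the microRNA ame-miR-305-5p, were then kept singly on 30% sucrose, and were frozen after 48 h. Brain and fat body were taken from the same bees, and the fat body stayed attached to the cuticle after the gut and the sting had been taken out. No label mentions a virus treatment, a mite count or a symptom. The high-virus fat bodies numbered 2 in R2, 1 in R3 and 1 in R42, against 9, 11 and 10 low-virus fat bodies in those colonies.

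The 4 high-virus fat bodies differed widely in how much virus they held and in which genome the counts fell on. The viral share was 12.7% in R2 bee 23, 0.873% in R2 bee 27, 47.9% in R3 bee 21 and 11.7% in R42 bee 15 (95% Wilson intervals 12.7 to 12.7%, 0.870 to 0.876%, 47.9 to 48.0% and 11.7 to 11.7%). Among the 30 low-virus fat bodies it reached 0.011%, with a median of 1.01e-04%, so the members just inside and just outside the class limit lay far apart. The first 4 below the limit were all from R3: bee 22 at 0.011%, bee 23 at 0.00422%, bee 20 at 0.00379% and bee 24 at 0.00243%. No virus count was found in 3 low-virus libraries, R3 bees 14, 16 and 18, which allows a share of up to 3.84e-05% in the shallowest of them. The intervals and this limit of 3 counts cover counting error only.

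All virus counts of these 34 libraries lay on the genomes labelled DWV and VDV, and the genomes labelled ABPV, IAPV and Sacbrood had 0. In R42 bee 15 the counts were 2100209 on DWV and 45 on VDV. In R2 bee 27 they were 303 on DWV and 438460 on VDV. R2 bee 23 had 77.8% and R3 bee 21 had 79.0% of their viral counts on VDV and the rest on DWV. One bee was thus almost purely DWV by this count, one almost purely VDV, and the other two were mixed in nearly the same ratio.

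**Figure D1:**
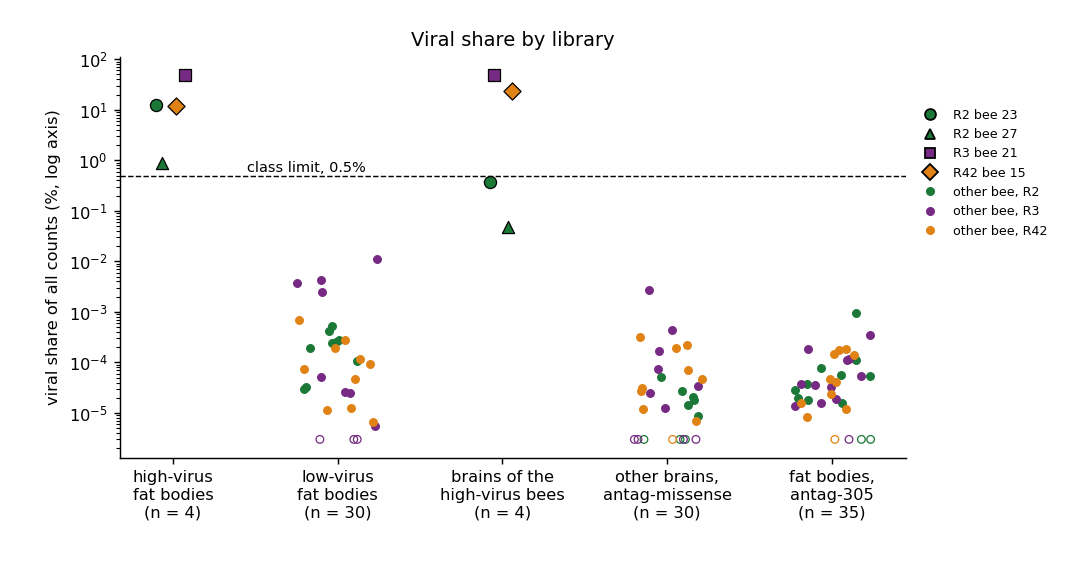
Viral share of all counts in each library (percent, log axis) in high-virus fat bodies, low-virus fat bodies, the brains of the high-virus bees, the other antag-missense brains and the antag-305 fat bodies; large symbols mark the 4 high-virus bees, colors mark colonies, and open circles at the bottom are libraries with 0 virus counts. The 4 high-virus fat bodies lie at 0.873% or more, and the low-virus fat bodies at 0.011% or less.

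The brains of the 4 bees carried the same genomes. Their viral share was 0.373% in R2 bee 23, 0.0479% in R2 bee 27, 47.7% in R3 bee 21 and 23.7% in R42 bee 15, while the other 30 antag-missense brains reached 0.00277%. The share of VDV among these counts was 81.8% in the brain of R2 bee 23 and 84.1% in that of R3 bee 21. The brain of R42 bee 15 had 4320571 counts on DWV and 98 on VDV, and the brain of R2 bee 27 had 0 on DWV and 9026 on VDV. Both R2 bees therefore had far less virus in the brain than in the fat body, and the other two bees as much or more.

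The libraries were comparable in size except for one. Bee-gene counts were 8383696 in R2 bee 23, 49816658 in R2 bee 27, 6706778 in R3 bee 21 and 15820872 in R42 bee 15, against 6208010 to 23427849 in low-virus fat bodies. The difference in means was not larger than chance assignment within colonies gives (exact permutation test, two-sided, p = 0.172, adjusted over 4 library values p = 0.687). The number of bee genes with a count, the share of the most abundant gene and the share of mitochondrial genes likewise gave p of 0.567 to 0.927 in the same exact test. R2 bee 27 is the deepest library of the 34 and the one with the lowest viral share of the 4.

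Markers of the tissue were present in both classes. The summed CPM of 5 fat body markers, the hexamerins and vitellogenin, was 1530 to 3873 in high-virus fat bodies, 366 to 9817 in low-virus fat bodies and at most 32.7 in brains. The 5 neuronal markers summed to 384 CPM in R2 bee 23 and to 50.8 to 81.6 CPM in the other 3 high-virus fat bodies, against 45.7 to 454 CPM in low-virus fat bodies. Venom gland markers summed to 10360 CPM in R2 bee 27 and to 1.19 to 1659 CPM in the other 3, against 0.527 to 19653 CPM in low-virus fat bodies, with 2 of the 4 venom markers at 0 in all 4 high-virus fat bodies. None of the markers of these tissues, of muscle, of hemocytes or of the head glands that passed the filter on low counts was called in the test below; 2 of the 4 venom markers and 1 of the 4 head gland markers did not pass it. In a bulk tissue, fewer cells of a type and less RNA per cell cannot be told apart.

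Between high-virus and low-virus fat bodies, 18 bee genes were higher and 0 were lower at a false discovery rate (FDR) under 0.05, among 10205 genes tested (edgeR quasi-likelihood test with colony as a block). The genes called higher were 0.176% of those tested, and the genes called lower 0%. At an unadjusted P under 0.05, 189 genes were higher (1.85%) and 86 lower (0.843%). The median log2 fold change was 2.23 over the called genes, from 0.88 to 5.37, and 0.06 over all genes tested. The called genes lay on 12 chromosomes, all were protein coding, and 3 of them carried a name of their own in the annotation: Def1, Pgrp-s2 and Y-e3. The sign of the difference was shared by the 3 colonies in 12 of the 18 genes, and in 2140 of the 10205 tested, 21%. The spans of LOC726766, LOC724274, LOC102655788, LOC726792 and Pgrp-s2 overlap that of another gene. In 11 of the 18, all 4 high-virus fat bodies lay above the low-virus median, which held for 6.77% of all genes tested. The calls were made on these same libraries, which favors such an order. This count and that of shared signs are therefore descriptions. P-values here measure the spread among bees of one treatment, and with 4 high-virus bees a single library can carry a call.

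**Figure D2:**
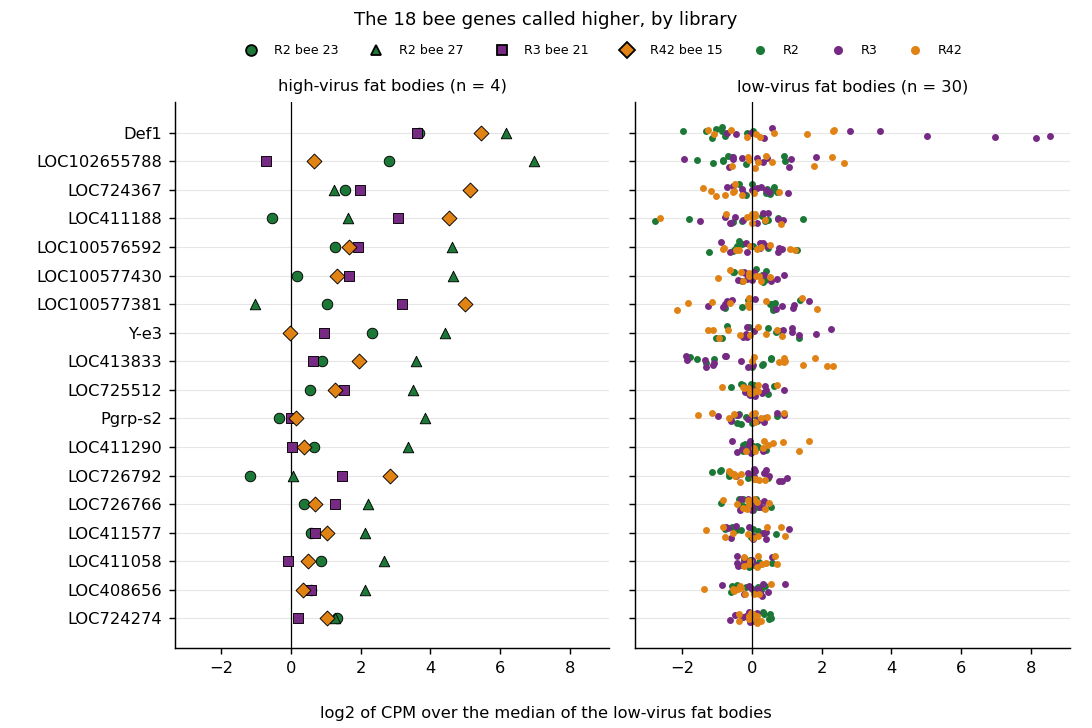
The 18 bee genes called higher, each as log2 of its CPM over the median CPM of the 30 low-virus fat bodies, in the 4 high-virus fat bodies (left) and the 30 low-virus fat bodies (right); symbols mark the high-virus bees and colors the colonies. R2 bee 27 is the rightmost symbol in 13 of the 18 genes, R42 bee 15 in 4 and R2 bee 23 in 1.

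Def1 encodes defensin-1, an antimicrobial peptide that the fat body releases into the blood. It had 275, 1542, 261 and 944 CPM in high-virus R2 bee 23, R2 bee 27, R3 bee 21 and R42 bee 15, against 5.46 to 8129 CPM with a median of 21.4 in low-virus fat bodies. All 4 high-virus bees stood above the low-virus median, but none was above the highest low-virus bee. In R2 the 275 and 1542 CPM of the high-virus bees compared with 5.46 to 21.8 CPM in low-virus bees, and in R42 the 944 CPM compared with 8.97 to 109 CPM. In R3, where the median of the low-virus bees was 150 CPM, the high-virus bee lay within their range. The log2 fold change was 5.37 ± 1.05 (SE, FDR = 0.012). The call depended on the colony block and on single bees. Without the block the log2 fold change was 0.39 (FDR = 1.00), without R2 bee 27 it was 3.72 (FDR = 0.52), and without R42 bee 15 it was slightly larger than with all 4 bees and did not pass the test (FDR = 0.12).

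The 3 highest Def1 levels of the 34 libraries came from low-virus R3 bees 24, 22 and 23, at 8129, 6069 and 2683 CPM. These are 3 of the 4 bees just below the class limit, and the fourth of them, R3 bee 20, had 694 CPM. The other 26 low-virus fat bodies had 5.46 to 273 CPM. Without these 4 R3 libraries, a fit added after seeing the data, the log2 fold change of Def1 was 5.34 (FDR = 1.4e-05). That fit leaves out the 4 highest Def1 levels of the low-virus class, which by itself lowers the FDR. Its FDR is therefore no separate support for the difference.

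Pgrp-s2 encodes a short, secreted peptidoglycan recognition protein, which in insects binds bacterial cell walls. Its 266, 4898, 341 and 374 CPM in high-virus R2 bee 23, R2 bee 27, R3 bee 21 and R42 bee 15 compared with 117 to 652 CPM in low-virus fat bodies (median 341). Only R2 bee 27 lay outside the low-virus range. The log2 fold change was 2.14 ± 0.47 (FDR = 0.037), and without R2 bee 27 it was -0.15 (FDR = 1.00). The span of Pgrp-s2 overlaps that of LOC100576758 on the other strand, and how the counting treated strand is not given in the sources used here, so reads of the pair cannot be told apart.

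Y-e3 belongs to the yellow family, from which the major royal jelly proteins of bees derive. It had 23.6, 99.6, 9.10 and 4.61 CPM in the same 4 high-virus bees, against 1.94 to 22.6 CPM in low-virus fat bodies (median 4.69). Both R2 bees were above every low-virus bee, and R42 bee 15 was at the median. The log2 fold change was 2.50 ± 0.52 (FDR = 0.023), and without colony R2 it was -0.020.

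LOC724367 gave the smallest P of all genes and was the one gene in which all high-virus bees lay above all low-virus bees. It spans positions 4828926 to 4829893 of chromosome 2 (HAv3.1). The level was 69.2 CPM in R2 bee 23, 55.1 CPM in R2 bee 27, 93.2 CPM in R3 bee 21 and 821 CPM in R42 bee 15, against 8.87 to 48.3 CPM in low-virus fat bodies (median 23.5). All 4 high-virus bees exceeded all 30 low-virus bees, which held for 1 of the 10205 genes, 0.0098%. The log2 fold change was 3.49 ± 0.42 (FDR = 1.5e-05). R42 bee 15 stood well above the other 3, and without it the log2 fold change was 1.28 (FDR = 0.12). Over the colonies the difference in mean log2 CPM was 0.99 in R2, 1.86 in R3 and 5.75 in R42, and LOC724367 was the 1 gene (0.0098% of those tested) whose virus difference varied between colonies at an FDR under 0.05 (interaction FDR = 0.00449). At an unadjusted P under 0.05 this interaction was seen in 187 genes.

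A second called gene lies beside it on the same chromosome. LOC724274, at positions 4823146 to 4824181, had 180, 171, 81.9 and 147 CPM in high-virus R2 bee 23, R2 bee 27, R3 bee 21 and R42 bee 15, against 46.2 to 104 CPM in low-virus fat bodies (median 71.8). Apart from R3 bee 21, the high-virus bees were above every low-virus bee, and R3 bee 21 was within their range. Its log2 fold change of 0.88 ± 0.14 (FDR = 8.1e-04) was the smallest among the called genes. Among the 18 called genes, LOC724367 and LOC724274 were the 2 in which each high-virus bee exceeded every low-virus bee of its own colony. The share of all tested genes with this order was not counted, and the calls came from the same libraries, so this is a description. LOC410087, on the opposite strand at 4820592 to 4826090, spans all of LOC724274. It had 424, 282, 187 and 508 CPM in the 4 high-virus bees against 65.6 to 278 CPM in low-virus fat bodies and did not pass the test (log2 fold change 0.99 ± 0.27, FDR = 0.24), and reads of this overlapping pair cannot be told apart. The next gene on the other side, LOC724405, had a log2 fold change of -0.05 (P = 0.89).

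**Figure D3:**
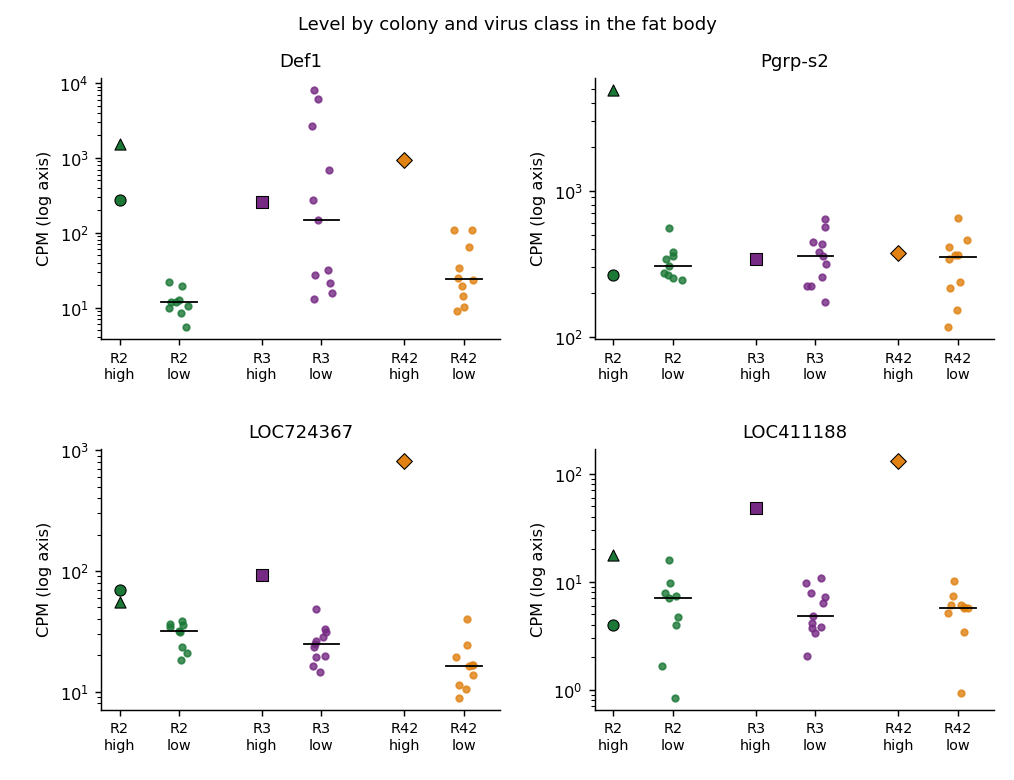
CPM (log axis) of Def1, Pgrp-s2, LOC724367 and LOC411188 in fat bodies of each colony, with high-virus bees left of low-virus bees; bars are medians of the low-virus bees, and large symbols are the high-virus bees (circle R2 bee 23, triangle R2 bee 27, square R3 bee 21, diamond R42 bee 15). In LOC724367 the high-virus symbols lie above the low-virus bees of their colony, and in Pgrp-s2 R2 bee 27 alone does.

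A set of called genes followed R2 bee 27, the bee with nearly pure VDV counts. R2 bee 27 had the highest level of the 4 high-virus bees in 13 of the 18 called genes. The share of all tested genes in which it was highest was not counted. It lay above every low-virus bee in 15 of the 18, and in 5.31% of all genes tested. The calls were made on the same libraries and most depended on this bee, so these counts are a description. LOC100577430 had 175, 3906, 499 and 389 CPM in R2 bee 23, R2 bee 27, R3 bee 21 and R42 bee 15, against 79.3 to 295 CPM in low-virus fat bodies. LOC100576592 had 232, 2359, 363 and 307 CPM in the same bees, against 41.0 to 236 CPM. LOC725512 had 32.2, 248, 63.4 and 53.2 CPM, against 12.2 to 41.8 CPM in low-virus fat bodies. In each of these genes R2 bee 27 was far above the rest, R3 bee 21 and R42 bee 15 were also above every low-virus bee, and R2 bee 23 was not.

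The log2 fold changes of LOC100577430, LOC100576592 and LOC725512 were 2.96 ± 0.39, 3.07 ± 0.40 and 2.17 ± 0.29 (FDR = 2.7e-05 each). Without R2 bee 27 they stayed positive, at 1.02, 1.37 and 0.99, and none of them passed the test. LOC726766 showed the same order at 267, 938, 494 and 329 CPM in the 4 high-virus bees, against 111 to 297 CPM in low-virus fat bodies (log2 fold change 1.40 ± 0.23, FDR = 8.1e-04).

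Other genes were high in R2 bees alone. LOC102655788 had 80.8 and 1432 CPM in R2 bees 23 and 27 but 7.01 CPM in R3 bee 21 and 18.1 CPM in R42 bee 15, against 2.95 to 71.7 CPM in low-virus fat bodies. LOC411058 had 117 and 416 CPM in the R2 bees and 61.6 and 90.5 CPM in R3 bee 21 and R42 bee 15, against 48.3 to 108 CPM. In both genes the R2 bees lay above all low-virus bees and the other 2 within them. LOC411290 had 390 CPM in R2 bee 27, 38.8 CPM in R3 bee 21 and 49.4 CPM in R42 bee 15, against 25.6 to 119 CPM in low-virus fat bodies, and R2 bee 23 also lay within this range. Without colony R2, the log2 fold changes of LOC102655788 and LOC411290 were -0.76 and -0.11.

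R2 bee 27 was also the highest of the 4 bees in LOC411577, LOC408656 and LOC413833. LOC411577 had 1087, 3139, 1164 and 1485 CPM in the 4 high-virus bees, against 292 to 1511 CPM in low-virus fat bodies (log2 fold change 1.31 ± 0.28, FDR = 0.026). LOC408656 and LOC413833 had log2 fold changes of 1.17 ± 0.25 and 2.30 ± 0.47 (FDR = 0.026 and 0.020). In these 3 genes R2 bee 27 was the one high-virus bee above all low-virus bees.

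A smaller set was highest in R42 bee 15, the bee with nearly pure DWV counts, and next highest in R3 bee 21. LOC411188 had 3.94, 17.6, 48.3 and 132 CPM in R2 bee 23, R2 bee 27, R3 bee 21 and R42 bee 15, against 0.837 to 15.8 CPM in low-virus fat bodies (log2 fold change 3.09 ± 0.44, FDR = 1.0e-04). LOC726792 had 4.06, 9.64, 25.3 and 66.4 CPM in the same bees, against 4.15 to 18.5 CPM. LOC100577381, a gene of low level, had 0.835, 0.201, 3.73 and 13.1 CPM, against 0.0925 to 1.50 CPM in low-virus fat bodies. In all 3 genes R3 bee 21 and R42 bee 15 lay above every low-virus bee. R2 bee 23 lay within the low-virus range in LOC411188 and LOC100577381 and just below it in LOC726792. The log2 fold changes of LOC726792 and LOC100577381 were 1.55 ± 0.33 and 2.95 ± 0.54 (FDR = 0.027 and 0.0050). Without R42 bee 15 none of LOC411188, LOC726792 and LOC100577381 passed the test.

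Which genes were called thus depended on single bees. Without R2 bee 27, 4 genes were called, all higher: LOC724367, LOC411188 and LOC100577381, which are among the 18, and LOC726981. LOC726981, named here after its values were seen, had 739, 43.9, 582 and 612 CPM in R2 bee 23, R2 bee 27, R3 bee 21 and R42 bee 15, against 19.5 to 502 CPM in low-virus fat bodies, so R2 bee 27 alone lay within the low-virus range. Without R42 bee 15, 17 genes were called (16 higher, 1 lower) and 12 of the 18 were among them. Without R2 bee 23, 33 genes were called, and without R3 bee 21, 25 genes, with all 18 among them each time. With the summed venom markers, which were high in R2 bee 27, as a covariate, 9 of the 18 stayed called, while the median log2 fold change of the 18 was 2.10, against 2.23 without the covariate. The part of these markers in the result was not tested. With the summed neuronal markers as a covariate, 24 genes were called, 17 of the 18 among them.

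**Figure D4:**
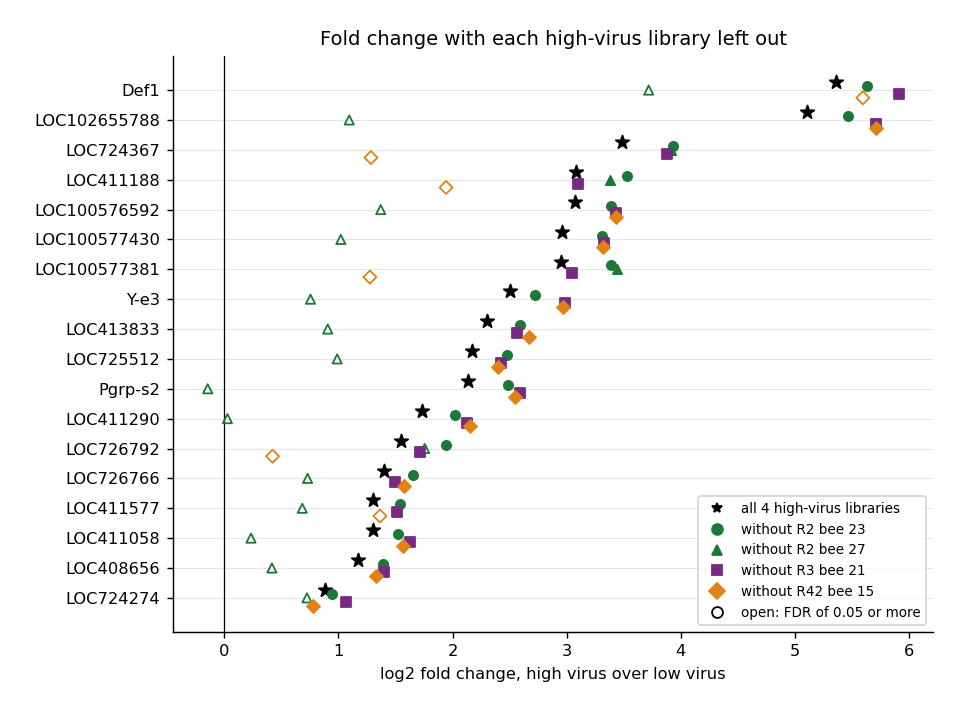
Log2 fold change (high virus over low virus) of the 18 called genes with all 4 high-virus libraries (stars) and with each of them left out (other symbols); open symbols did not reach an FDR under 0.05. Without R2 bee 27 the values run from -0.15 in Pgrp-s2 to 3.92 in LOC724367, and 15 of the 18 genes lose their call.

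No gene was called lower. Of the 12 genes with the smallest P among those lower in all 3 colonies, the log2 fold changes ran from -5.80 to -0.48 and the FDR from 0.376 to 1.00. LOC410993, described as a valacyclovir hydrolase, had 56.8, 59.6, 58.3 and 54.6 CPM in the 4 high-virus bees and 63.5 to 124 CPM in low-virus fat bodies. It was the 1 gene (0.0098%) in which all 4 lay below all 30 in CPM, but its log2 fold change of -0.48 ± 0.16 did not pass the test (FDR = 0.99), and with the normalization factors of the test the classes overlapped. LOC551837 had 661, 639, 726 and 732 CPM in the high-virus bees against a low-virus median of 1161 CPM (log2 fold change -0.84 ± 0.27, FDR = 0.67). LOC725668 had 14.9, 5.14, 1.49 and 10.8 CPM against a median of 40.8 CPM (log2 fold change -2.97 ± 0.91, FDR = 0.50).

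Beyond Def1 and Pgrp-s2, immune genes that could be found by name gave no call in the fat body. An immune gene whose symbol, synonym and description do not name it as one was left out of these lists. Of the 3 antimicrobial peptide genes found by name, 2 passed the filter on low counts and 1, Def1, was called. The other, Apid1, which encodes the peptide apidaecin, had 2455, 251, 510 and 128 CPM in R2 bee 23, R2 bee 27, R3 bee 21 and R42 bee 15, against 36.5 to 3594 CPM in low-virus fat bodies (log2 fold change 2.03 ± 0.72, FDR = 1.00). Its order among the 4 bees was unlike that of Def1, with R2 bee 23 highest. Of 9 genes of recognition and of Toll and Imd signaling, 1 (Pgrp-s2) was called, and their median log2 fold change was -0.03, against 0.06 over all genes. Imd, the adaptor that names its pathway, had 106 to 172 CPM in high-virus and 59.2 to 270 CPM in low-virus fat bodies (log2 fold change 0.14 ± 0.30). The inhibitor cact1 and the transcription factor Dl gave log2 fold changes of 0.09 and -0.07.

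RNA interference was represented by 1 gene found by name, so the pathway as a whole was not examined. Dcr-1, a Dicer enzyme, had 45.8, 42.7, 38.6 and 33.6 CPM in the 4 high-virus bees, against 23.4 to 46.2 CPM in low-virus fat bodies (log2 fold change 0.09 ± 0.14, P = 0.53). All 4 lay within the low-virus range. Whether Dcr-1 acts on viral RNA was not tested, so its level is no reading of antiviral RNA interference. The 2 melanization genes, SP34 and prophenoloxidase (PPO), had log2 fold changes of 0.65 ± 1.03 and -0.11 ± 0.35. No gene of JAK/STAT signaling could be found by name in the annotation used here.

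Other physiological groups showed at most 1 call each. Of 15 genes for heat shock proteins and chaperones, 0 were called and the median log2 fold change was 0.11. The mitochondrial chaperonin LOC409384 (heat shock protein 60A) had 992, 506, 965 and 745 CPM in high-virus fat bodies against a low-virus range of 314 to 773 CPM (log2 fold change 0.42 ± 0.15, P = 0.0099, FDR = 1.00), and Hsp90 gave 0.55 ± 0.23 (P = 0.022). Of 19 storage, yolk, royal jelly and yellow genes, 15 were tested and 1 (Y-e3) was called. No member was called among 10 detoxification genes (median log2 fold change -0.11), 13 genes of the mitochondrial genome (0.17), 23 cytosolic ribosomal proteins (-0.18) and 23 tested genes for odorant-binding and chemosensory proteins (-0.29), of which 5 were lower at an unadjusted P under 0.05, as were 0.843% of all genes tested.

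Genes of hormonal pathways that could be found by name did not differ detectably. InR-1, which the study also measured, could not be found by name and is not reported. Vg, the yolk protein vitellogenin, had 91.8, 27.2, 140 and 48.0 CPM in the 4 high-virus bees, against 4.91 to 582 CPM in low-virus fat bodies (log2 fold change -0.80 ± 0.76, P = 0.30). Kr-h1, a transcription factor that responds to juvenile hormone, gave 0.02 ± 0.20, and Usp, a nuclear receptor partner of ecdysone signaling, gave 0.27 ± 0.41. ILP-2, an insulin-like peptide, had 23.5, 45.4, 32.2 and 26.4 CPM in high-virus fat bodies, all above the low-virus median of 18.9 CPM, and did not pass the test (log2 fold change 0.71 ± 0.22, FDR = 0.57). Of the 6 fat body genes that the study called between its antagomir treatments, 0 were called here, with log2 fold changes from -0.49 to 0.02. The study made those calls on another set of samples, after removing these 4 high-virus fat bodies for their viral load.

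The levels in the 35 antag-305 fat bodies, whose viral share reached 9.36e-04%, lay near those of the low-virus bees. The median of LOC724367 there was 22.8 CPM with a maximum of 62.5 CPM, above the 55.1 CPM of high-virus R2 bee 27. LOC100577430 had a median of 142 CPM and a maximum of 367 CPM, and Def1 a median of 20.5 CPM and a maximum of 1280 CPM. For none of the 18 genes did all 4 high-virus fat bodies lie above all antag-305 fat bodies. The share of all tested genes with that order was not counted. Against the 30 low-virus fat bodies, such a separation held for 1 of the 10205 genes tested, 0.0098%.

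In the brains of the same bees a partly different set of genes was called. Between the brains of the 4 high-virus bees and 30 other antag-missense brains, 13 genes were higher and 0 lower among 9624 tested (0.135% and 0%), with 958 genes (9.95%) at an unadjusted P under 0.05. Apid1 was first, with 2.44, 9.55, 799 and 918 CPM in the brains of R2 bee 23, R2 bee 27, R3 bee 21 and R42 bee 15, against 0 to 8.60 CPM in the other brains (log2 fold change 8.97 ± 0.53, FDR = 7.0e-14). LOC406142 had 3.78, 15.4, 766 and 755 CPM in these brains, against 0 to 10.9 CPM (log2 fold change 7.68 ± 0.58). The brains of R3 bee 21 and R42 bee 15, with shares of 47.7% and 23.7%, stood far above all others, the brain of R2 bee 27 was slightly above the other brains in both genes, and that of R2 bee 23 was within their range.

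Called in both tissues were LOC100577430 and LOC100576592. LOC100577430 had 20.8, 23.3, 73.3 and 72.4 CPM in the brains of R2 bee 23, R2 bee 27, R3 bee 21 and R42 bee 15, against 8.71 to 31.7 CPM in the other brains (log2 fold change 1.20 ± 0.21, FDR = 0.0020). LOC100576592 had 5.46, 2.97, 25.4 and 33.9 CPM, against 0.787 to 9.47 CPM (log2 fold change 2.30 ± 0.38, FDR = 0.0011). In both genes R2 bee 27 had the highest fat body level of the 34 bees and a brain level within the range of the low-virus bees. Of the 18 genes called in the fat body, 15 were tested in the brain, 11 had a positive log2 fold change there and 8 a positive one with an unadjusted P under 0.05. Over the 9211 genes tested in both tissues, 49.4% had a positive log2 fold change in the brain and 4.89% a positive one with an unadjusted P under 0.05. Def1 was not among the 11 called genes with a positive log2 fold change in the brain: its brain levels were 0.42 to 26.6 CPM, against 0.498 to 82.5 CPM in the other brains. In the fat body, LOC406142 had 3714, 16710, 383 and 150 CPM in the 4 high-virus bees, against 14.7 to 15842 CPM in low-virus bees (log2 fold change 4.86 ± 1.45, FDR = 0.44).

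**Figure D5:**
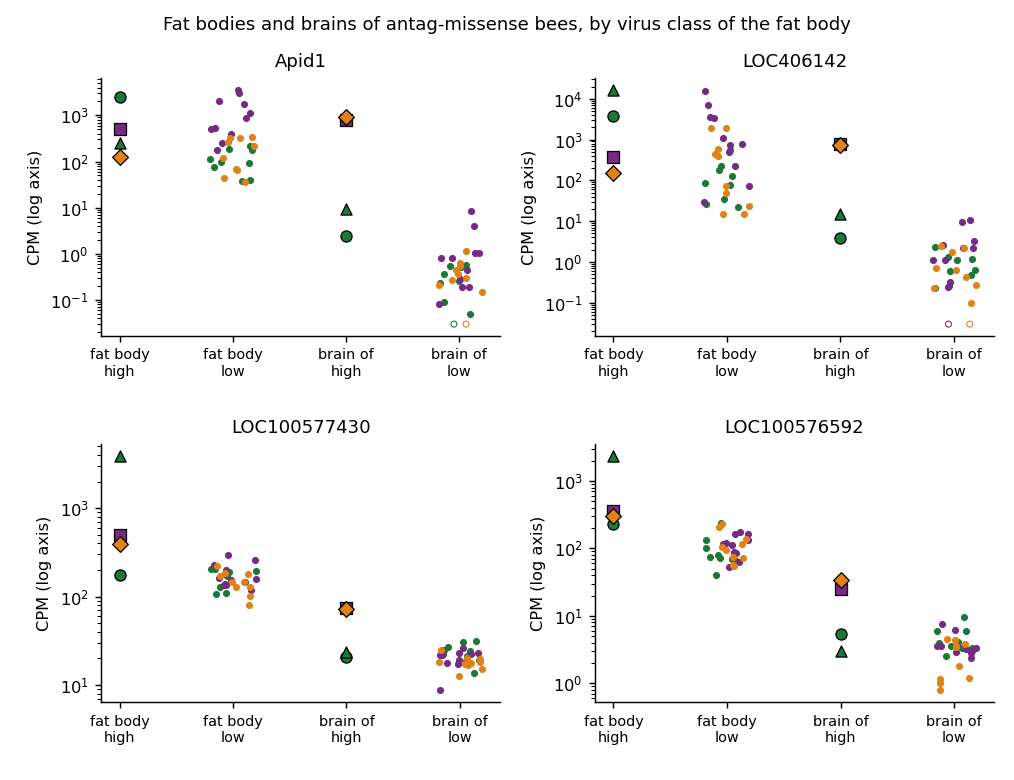
CPM (log axis) of Apid1, LOC406142, LOC100577430 and LOC100576592 in fat bodies and brains of antag-missense bees, with the 4 high-virus bees (circle R2 bee 23, triangle R2 bee 27, square R3 bee 21, diamond R42 bee 15) left of the 30 low-virus bees (colors by colony) in each tissue; open circles at the bottom are libraries at 0. In the brain, R3 bee 21 and R42 bee 15 lie above the low-virus bees in all 4 genes, and in the fat body R2 bee 27 is highest in LOC406142, LOC100577430 and LOC100576592.

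Several called genes also varied together in bees without high virus. Over the 30 low-virus fat bodies, with colony means removed, LOC725512 and LOC100577430 correlated at r = 0.80, LOC100576592 and LOC725512 at 0.73, and LOC725512 and LOC726766 at 0.71. Over the 35 antag-305 fat bodies the same pairs gave 0.68, 0.77 and 0.77. These values describe libraries that share tissue, dissection and sequencing lane, and carry no test. The median over all 153 pairs of called genes was 0.093 in low-virus and 0.206 in antag-305 fat bodies, against 0.049 and 0.044 over pairs of all genes tested.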

How the data were processed

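RNA-seq libraries of single bees had been made with a stranded mRNA kit and sequenced in pairs by the authors, who trimmed adapters, used STAR (2.7.6a) for alignment to HAv3.1 and featureCounts (Subread 2.0.0) for counting. What they deposited are raw counts per feature, over 12332 bee gene spans (introns included) and 5 virus genomes. Strand setting and treatment of multiply aligned reads are not given in the sources used here. Spans were matched to RefSeq symbols by position (12331 matched), and descriptions of 788 genes came from the study's gene tables. Most called genes have no description there and are given by symbol only.

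The filter kept bee genes above 1 CPM in 4 or more libraries, which were tested with edgeR 4.0.16 (R 4.3.3; TMM, quasi-likelihood F test, colony block, Benjamini-Hochberg FDR under 0.05). This setup was tested on simulated counts in which a changed gene had the same fold change in all 4 high-virus libraries. Genes high in 1 bee alone were not simulated. Printed CPM are plain, on the bee-gene total. Library values used exact permutation within colony (7260 assignments, smallest p 1.4e-04). The classes, lists and tests were chosen with earlier results of these data known. Named were the 12 genes of smallest P in each direction with 1 sign in all 3 colonies, every called gene and the smallest-P member of each list. Genes of hormonal pathways that the study measured were named where they could be found by symbol. The study's 6 treatment genes are given as a range. Alternatives covered normalization (RLE, upper quartile), tool (DESeq2 1.42.0, limma-voom 3.58.1), estimation, filters, colony, libraries, gene length offsets (loess, span 0.5) and bee number as a block. The marker covariates, the fit without 4 low-virus libraries and the fit of viral share among low-virus libraries were added after seeing the data. No 2 libraries of a colony agreed within counting noise (lowest chi-square per degree of freedom 34.5 over 176 pairs).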

Additional observations from a re-analysis of the deposited data

Results flagged for a closer look

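Among the 4 high-virus fat bodies, 1 bee stood apart from the other 3 by Dixon's criterion in 9 of the 18 called genes and in 0 of 23 other named genes. Chance gives about 1 in 20 for normally distributed values. The criterion was applied to CPM without a log, for which that rate may not hold. In 8 of the 9 genes that bee was R2 bee 27, the highest of the 4: LOC100576592 (2359 CPM), LOC725512 (248 CPM), LOC100577430 (3906 CPM), LOC408656 (456 CPM), LOC102655788 (1432 CPM), LOC411058 (416 CPM), LOC411290 (390 CPM) and Pgrp-s2 (4898 CPM). In LOC724367 it was R42 bee 15, at 821 CPM. The calls were made on the same libraries, so this count is a description.

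The virus difference of LOC724367 differed between colonies (interaction FDR = 0.00449, edgeR). Colonies R3 and R42 hold 1 high-virus bee each, so colony and bee cannot be told apart.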

How the results depend on the processing

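Against 18 genes called in the fat body, DESeq2 called 34 (30 higher, 4 lower), limma-voom with sample weights 119 (92 higher, 27 lower), the fit without colony R2 called 7, and the fit with venom markers as a covariate 9, with a median log2 fold change of the 18 genes of 2.10 against 2.23. The weights of limma-voom were 4.24 for R3 bee 21 and 2.22 for R42 bee 15, against 0.229 for R2 bee 23 and 0.408 for R2 bee 27, and 11 of the 18 genes were called by it. Leaving out 1 high-virus bee gave 4 to 33 calls. The other alternatives gave 13 to 24 calls, all of them higher. With bee number as a block 0 genes were called, and 8 of the 18 had an unadjusted P under 0.05. The number 27 occurs in 1 library of the 34, so that block removes R2 bee 27 from the comparison, and the fit keeps 16 residual degrees of freedom. The labels do not say that a bee number pairs bees of different colonies. Of 26 such same-numbered pairs, 13 correlated above 0.1 (median 0.13, range -0.63 to 0.89), against a median of 0.10 for other pairs. Whether a shared number marks a pairing was not tested. In the brain, against 13 genes, the stricter filter gave 6 and leaving out 1 bee 3 to 19.

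Directions reversed as follows, on the log2 scale, the cause not being tested. Leaving out 1 high-virus bee moved Pgrp-s2 to between -0.15 and 2.59, Dcr-1 to between -0.033 and 0.17, Usp to between -0.39 and 0.54 and Kr-h1 to between -0.061 and 0.11. Bee number as a block gave -0.48 (Pgrp-s2), -0.052 (Dcr-1), -0.30 (SP34) and -0.17 (Kr-h1). Without colony R2, values were -0.020 (Y-e3), -0.76 (LOC102655788), -0.11 (LOC411290), -0.0087 (Dcr-1), -2.30 (SP34) and -0.27 (Usp). limma-voom gave Dcr-1 -0.038. Kr-h1, near 0 throughout, had -0.027 with upper-quartile factors, -0.0013 with at least 10 counts in every library, -0.0023 without the colony block, -0.052 with all 69 fat bodies, -0.011 without colony R42 and -0.0055 without the 4 low-virus bees of highest viral share.

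With 4 high-virus bees, spread over 3 colonies and 2 virus genomes, the test does not separate a gene that is higher in 1 bee from one that is higher in all 4, and viral shares under 3 counts of a library are not resolved.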

Other observations

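Within the 30 low-virus fat bodies, the viral share itself was fitted as a continuous term beside colony (edgeR, log10 of the percentage plus 1e-05), a fit chosen after seeing the data. LOC494509 and LOC724208 were called higher with a higher share, of 10093 genes tested, and 0 lower, while 185 genes had an unadjusted P under 0.05. LOC494509 rose by 1.10 ± 0.18 log2 units per 10 times higher share (FDR = 0.018) and LOC724208 by 0.88 ± 0.16 (FDR = 0.034). Imd, the adaptor protein of the Imd pathway, gave 0.46 ± 0.09 (FDR = 0.091) and Def1 gave 1.92 ± 0.41 (FDR = 0.0995). The fit rested on the 4 R3 bees just below the class limit: without them 0 genes were called, with 661 at an unadjusted P under 0.05, and the slopes of LOC494509, LOC724208, Imd and Def1 were -0.32, 0.02, 0.05 and -0.29. In the 35 antag-305 fat bodies, whose shares stayed under 9.4e-04%, 0 genes were called, with 2175 at an unadjusted P under 0.05.

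In R3 bees 22, 23, 20 and 24, LOC494509 had 2626, 1442, 853 and 3038 CPM, against 110 to 448 CPM in the other 26 low-virus fat bodies. Imd had 254, 270, 204 and 260 CPM in these 4 bees, against 59.2 to 195 CPM. In both genes, and in LOC724208, the 4 bees lay above all 26 others. These genes were named from the fit that rested on the same 4 bees, all of colony R3, so this order is a description. Its share over all genes was not counted. The high-virus R2 bee 23, R2 bee 27, R3 bee 21 and R42 bee 15 had 145, 1347, 259 and 588 CPM of LOC494509, so R2 bee 27 and R42 bee 15 were also above the 26, and 106 to 172 CPM of Imd, within their range.

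Of the viral counts of R3 bees 22, 23 and 24, 79.6%, 78.0% and 76.1% lay on VDV and the rest on DWV. The VDV share was 79.0% in high-virus R3 bee 21 and 77.8% in high-virus R2 bee 23, from another colony. It was 99.9% in R2 bee 27 and 0.0021% in R42 bee 15. R3 bee 20 had 1 count on DWV and 648 on VDV. All 138 libraries carry first and second index sequences that no other library of the series shares. Whether counts passed between libraries or bees was not tested.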
